A study of Mus musculus with 18 samples.

Results

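The 9 genes described here encode proteins of antimicrobial defence: Pglyrp1, Pglyrp2, Slpi, Wfdc2, Defb1, S100a8, S100a9, Saa3 and Pigr. They are 9 of the 36528 genes in the files and were found by their current mouse symbols. Pglyrp2 was chosen by its response to TWEAK and NIK SMI1 in these same samples, so its levels and folds are a description and carry no test, and the other 8 were named for their role with results of these data already known. Of the 9, 3 had enough reads to be tested (Pglyrp1, Pglyrp2 and Wfdc2) and 6 did not.

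RNASeq was performed on primary renal proximal tubule epithelial cells (RPTEC) of C57BL/6 mice, bought from a supplier and grown in an epithelial medium. The cells received DMSO vehicle, TWEAK at 100 ng/mL, or TWEAK at 100 ng/mL together with NIK SMI1 at 3 μM, and were collected at 6 h or 24 h, so that 18 samples fell into 6 groups of 3. TWEAK is a TNF family cytokine that can activate canonical NF-κB signaling and, through NF-κB inducing kinase (NIK), non-canonical NF-κB signaling. NIK SMI1 is a small molecule inhibitor of NIK. There was no group with NIK SMI1 alone. The labels name no separate animals or cultures, so the p-values measure only the spread between these samples, which may be technical.

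Epithelia of the urinary tract secrete proteins that bind, starve or kill bacteria. Peptidoglycan recognition proteins bind the bacterial cell wall, and PGLYRP2 differs from its relatives in being an amidase that cleaves peptidoglycan. SLPI and WFDC2 carry whey acidic protein domains, DEFB1 is a beta-defensin, S100A8 and S100A9 form calprotectin, which withholds metal ions from bacteria, SAA3 is an acute phase protein, and PIGR carries immunoglobulin A across epithelia into the lumen.

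The depth of the samples was 18040966 to 51956444 counted reads (median 35374254). CPM, the reads of a gene scaled to a common number of counted reads, puts 3 reads, the smallest count taken as a level, at 0.0577 to 0.166. The 5 epithelial markers Epcam, Cdh1, Krt8, Krt18 and Krt19 had 596133 to 2611779 reads each over the 18 samples. Of 8 proximal tubule markers, 5 passed the filter on low counts, whereas the transporters Slc34a1 and Slc22a6 had 3 reads and 1 read in all. Genes of the pancreatic islet stood apart between libraries: Ins1 and Ins2 had no read in 4 samples, which were replicate 2 of TWEAK at 24 h and the 3 samples with NIK SMI1 at 24 h. The summed level of 7 islet markers at 24 h was 14.3 to 19.5 CPM with vehicle. It was 0.214 to 13.2 CPM with TWEAK and 0.0451 to 0.0870 CPM with both agents. The part of islet reads in the 24 h results was not tested. Beside some results, a fit with replicate 2 as the only TWEAK sample at 24 h is given as an effect size. For NIK SMI1 relative to TWEAK at 24 h it is given for Pglyrp1 and Pglyrp3 only. The other genes of that comparison carry no such value here. All vehicle samples at 24 h held islet reads, so in comparisons with vehicle that fit cannot separate them from treatment. The same holds for both agents against vehicle at 24 h in every fit.

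The promoters of both peptidoglycan recognition members are shown because they are of 1 family and their responses differed in size: the 250 bases before the RefSeq start (GRCm38.p6), 5′ to 3′ on the strand of the gene, with matches to the κB consensus on either strand in capitals. RefSeq windows were found for 8 of the 9 members. The GENCODE spans of both genes, given below, begin further upstream than the RefSeq starts used. Both windows therefore lie within those spans, and sequence before the GENCODE starts was not read.

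Pglyrp2 (chr17:32420976-32421225, minus strand): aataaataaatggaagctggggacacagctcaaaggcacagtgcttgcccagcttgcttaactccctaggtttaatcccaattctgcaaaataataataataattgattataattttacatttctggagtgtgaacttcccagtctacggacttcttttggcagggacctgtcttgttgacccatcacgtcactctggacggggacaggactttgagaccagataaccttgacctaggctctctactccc
Pglyrp1 (chr7:18884440-18884689, plus strand): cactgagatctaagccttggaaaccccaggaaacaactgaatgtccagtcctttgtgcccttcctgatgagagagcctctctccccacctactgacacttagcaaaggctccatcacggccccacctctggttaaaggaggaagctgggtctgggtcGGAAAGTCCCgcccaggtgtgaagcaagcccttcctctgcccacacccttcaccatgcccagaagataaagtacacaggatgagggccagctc

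The window of Pglyrp1 held 1 match to the κB consensus, 93 to 84 bases before the start, and that of Pglyrp2 held 0. Over all 32851 RefSeq windows of this length, 7.25% held a match. The looser pattern GGGNNNNNCC, which takes in the κB consensus and was also read on both strands, occurred in 45.8% of all windows, in that of Pglyrp1 at the same place, and not in that of Pglyrp2. A match is a run of letters and not a shown binding site, and its absence from 250 bases says nothing about a factor.

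Pglyrp2 (GeneID 57757) lies on chromosome 17 of GRCm38 between 32412459 and 32424167, on the minus strand. It went from near absence with vehicle to a clear signal with TWEAK, and most of that signal was missing when NIK SMI1 was present. At 6 h the 3 vehicle samples held 4, 2 and 4 reads of Pglyrp2, the 3 TWEAK samples 174, 218 and 161, and the 3 samples with both agents 11, 14 and 5. The counts of Pglyrp2 at 24 h were 2, 0 and 0 with vehicle, 368, 664 and 605 with TWEAK, and 35, 19 and 21 with both agents. The 3 groups of a time point did not overlap at either time: every TWEAK sample was above every sample with NIK SMI1, and these were above every vehicle sample.

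Scaled to depth, Pglyrp2 averaged 0.0867 ± 0.0390 CPM (vehicle), 4.53 ± 0.41 CPM (TWEAK) and 0.381 ± 0.155 CPM (both agents) at 6 h (SD, n = 3 each). Its 24 h levels were 0.0156 ± 0.0270, 14.96 ± 1.09 and 0.674 ± 0.120 CPM in the same order. In the order of its group means, TWEAK at 24 h came first and TWEAK at 6 h second, followed by the NIK SMI1 groups at 24 h and 6 h and by vehicle at 6 h and 24 h. Of these neighbours, the 24 h and 6 h groups with NIK SMI1 did not differ beyond their spread (0.551 to 0.790 and 0.277 to 0.559 CPM), and both vehicle groups were at or near the level of 3 reads.

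The pooled reads of Pglyrp2 were 54.1 times higher with TWEAK than with vehicle at 6 h (95% exact interval 29.2 to 113, counting error only). At 24 h the ratio rested on 2 vehicle reads and was 610, with an interval of 169 to 5044. The fitted log2 fold changes of Pglyrp2 were 5.72 (SE 0.26) at 6 h and 9.07 (SE 0.29) at 24 h, and the latter depends on the prior count and was 11.96 without replicate 1 of vehicle at 24 h, the library with both vehicle reads of that time. With NIK SMI1, Pglyrp2 was 11.8 times lower than with TWEAK alone at 6 h and 21.5 times lower at 24 h by pooled reads, and the fitted log2 fold changes were -3.56 (SE 0.22) and -4.45 (SE 0.16).

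A remainder of the Pglyrp2 signal was left with the inhibitor. The samples with NIK SMI1 kept 6.62% ± 3.49 (SD, n = 3) of the rise above vehicle at 6 h and 4.41% ± 0.80 at 24 h, each sample set against the means of the TWEAK and vehicle groups. Against vehicle, the pooled reads of Pglyrp2 were 4.57 times higher with both agents at 6 h (interval 2.17 to 10.5). At 24 h this ratio was 28.4, again on 2 vehicle reads (interval 7.59 to 239). Replicate 2 of TWEAK at 24 h, which held no reads of Ins1 or Ins2, had 14.2 CPM of Pglyrp2, beside 16.2 and 14.5 CPM in the other TWEAK samples of that time, which had them. An antisense gene, CT485616.1, overlaps the span of Pglyrp2 in GENCODE. Because the library kit does not mark strand, any reads of the pair where they overlap cannot be told apart.

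**Figure D1:**
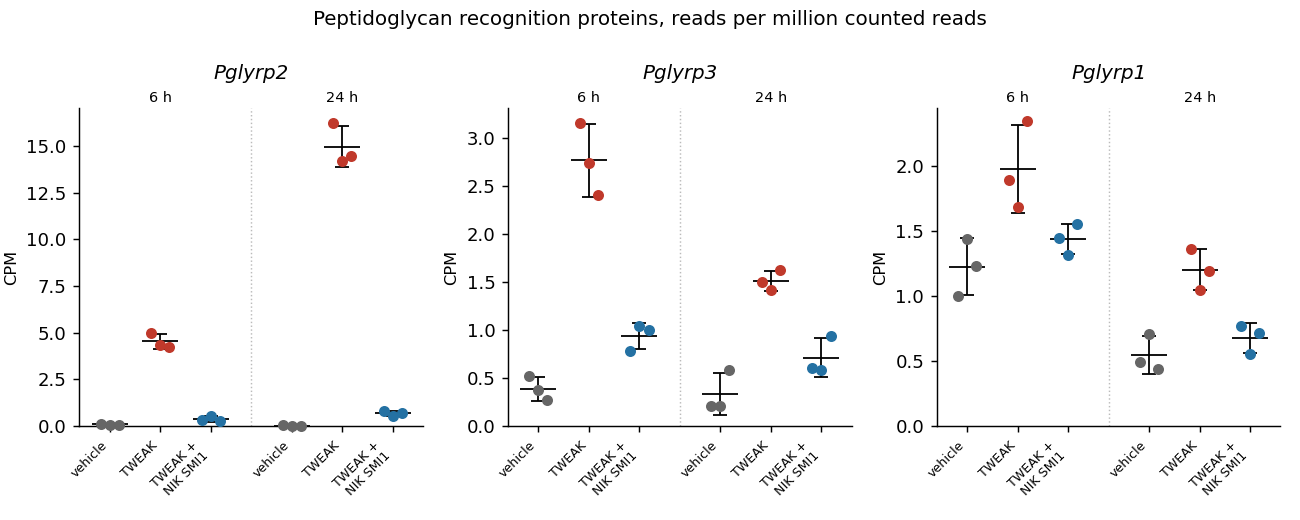
CPM of Pglyrp2, Pglyrp3 and Pglyrp1 in each of the 18 samples by treatment and time. Points are samples, lines the mean and bars the SD of 3 samples, and each panel has its own axis from 0. Pglyrp2 in the TWEAK samples at 24 h lies between 14.2 and 16.2 CPM and in all vehicle samples at or below 0.130 CPM, whereas Pglyrp1 is present with vehicle too.

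Pglyrp1 (GeneID 21946; chromosome 7 of GRCm38, 18871331 to 18890459, plus strand) binds peptidoglycan and is known from neutrophil granules. It was present in all 18 samples, at 0.439 to 2.35 CPM, and rose with TWEAK at both times by much less than Pglyrp2. At 6 h Pglyrp1 stood at 1.004, 1.44 and 1.23 CPM with vehicle, at 1.90, 1.69 and 2.35 CPM with TWEAK, and at 1.45, 1.32 and 1.55 CPM with both agents. The TWEAK samples were above all others of that time, and the samples with NIK SMI1 overlapped those with vehicle. At 24 h the values of Pglyrp1 were 0.491, 0.710 and 0.439 CPM with vehicle, 1.37, 1.05 and 1.20 CPM with TWEAK, and 0.767, 0.551 and 0.715 CPM with both agents, which is the same arrangement at a lower level.

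The log2 fold change of Pglyrp1 with TWEAK was 0.69 (SE 0.20, edgeR quasi-likelihood test with Benjamini-Hochberg adjustment over 15521 genes, adjusted p = 0.0101) at 6 h and 1.14 (SE 0.26, adjusted p = 0.00102) at 24 h. The difference between these effects, 0.45 (SE 0.33), did not pass the test (adjusted p = 0.489). Relative to TWEAK alone, Pglyrp1 fell with NIK SMI1 at 24 h by 0.79 on the log2 scale (SE 0.24, adjusted p = 0.0178), and at 6 h the log2 fold change of -0.46 (SE 0.21) did not pass (adjusted p = 0.169). Against vehicle, the log2 values with TWEAK and NIK SMI1 were 0.22 (95% interval -0.20 to 0.65) at 6 h and 0.35 (-0.22 to 0.91) at 24 h, and neither passed (adjusted p = 0.572 and 0.484).

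These calls of Pglyrp1 rest on few reads, 9 to 89 a sample. The call at 6 h was lost without replicate 1 of vehicle (log2 0.59, adjusted p = 0.0507) and without replicate 3 of TWEAK (0.54, adjusted p = 0.0795). The NIK SMI1 call at 24 h was lost without replicate 1 of TWEAK (log2 -0.71, adjusted p = 0.059), without its replicate 3 (-0.78, adjusted p = 0.0531), and without replicate 2 of the NIK SMI1 group (-0.67, adjusted p = 0.0882). The log2 fold change with NIK SMI1 at 24 h was -0.61 when the 1 TWEAK sample without reads of Ins1 or Ins2 stood in place of all 3. In vehicle cultures Pglyrp1 was lower at 24 h than at 6 h by a log2 fold change of -1.27 (SE 0.26, adjusted p = 0.000393).

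Of the companion genes, a list of 68 other genes of antimicrobial defence and related families named by role, Pglyrp3 was the one other family member that could be tested. Pglyrp3 (chromosome 3 of GRCm38, 92014583 to 92031582, plus strand) encodes a bactericidal member of the family. It had 16, 14 and 14 reads with vehicle at 6 h, 110, 138 and 91 with TWEAK, and 28, 26 and 18 with both agents. The 24 h counts of Pglyrp3 were 9, 4 and 12, then 34, 66 and 68, then 27, 20 and 29 for the same treatments. TWEAK samples were thus above all others at both times, and the samples with NIK SMI1 were above those with vehicle at 6 h and overlapped them in CPM at 24 h.

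Pglyrp3 rose with TWEAK by a log2 fold change of 2.90 (SE 0.26, adjusted p = 1.31e-09) at 6 h and 2.29 (SE 0.33, adjusted p = 2.05e-06) at 24 h. With NIK SMI1 it fell by 1.59 (SE 0.24, adjusted p = 3.65e-05) and by 1.11 (SE 0.26, adjusted p = 0.00253) on the log2 scale. The log2 fold change with NIK SMI1 at 24 h was -1.01 when the 1 TWEAK sample without reads of Ins1 or Ins2 stood in place of all 3. With both agents Pglyrp3 was still called above vehicle, with log2 values of 1.31 (adjusted p = 0.00641) at 6 h and 1.18 (adjusted p = 0.0247) at 24 h. The samples with NIK SMI1 kept 23.1% ± 5.85 of the rise of Pglyrp3 at 6 h and 32.0% ± 17.1 at 24 h (SD, n = 3), next to the values of 6.62% and 4.41% for Pglyrp2. Whether the shares of the genes differ was not tested. Pglyrp4, the fourth gene of the family, had 31 reads over the 18 samples and was not tested.

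Per exon length the order of Pglyrp1, Pglyrp2 and Pglyrp3 changed with treatment. With vehicle at 24 h the authors' RPKM values averaged 0.770 ± 0.201 for Pglyrp1, 0.137 for Pglyrp3 and 0.00402 for Pglyrp2. With TWEAK at 24 h they averaged 3.85 ± 0.30 for Pglyrp2, 1.69 ± 0.23 for Pglyrp1 and 0.622 for Pglyrp3, so Pglyrp2 moved from last of these 3 genes to first. With TWEAK at 6 h Pglyrp1 was still first at 2.79 ± 0.49 RPKM, and Pglyrp2 and Pglyrp3 stood at 1.17 and 1.14 RPKM.

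Wfdc2 (GeneID 67701; chromosome 2 of GRCm38, 164562413 to 164568510, plus strand), a whey acidic protein domain gene of many epithelia, was the only abundant member, and it moved the other way. Its mean over the groups was 548 RPKM, against 1.66 RPKM for Pglyrp1, the next in order. At 6 h Wfdc2 stood at 553, 568 and 548 CPM with vehicle, at 485, 489 and 513 CPM with TWEAK, and at 556, 595 and 530 CPM with both agents. Its values at 24 h were 523, 542 and 541 CPM with vehicle, 361, 362 and 354 CPM with TWEAK, and 466, 445 and 452 CPM with both agents. The TWEAK samples were the lowest at both times without overlap, and at 24 h the samples with NIK SMI1 lay between the other groups.

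With TWEAK, Wfdc2 fell by 0.16 on the log2 scale (SE 0.04, adjusted p = 0.00185) at 6 h and by 0.58 (SE 0.04, adjusted p = 5.49e-13) at 24 h. The fall was larger at 24 h by a log2 difference of -0.42 (SE 0.05, adjusted p = 1.92e-06, interaction term). Relative to TWEAK alone, Wfdc2 rose with NIK SMI1 by 0.17 (SE 0.04, adjusted p = 0.00168) at 6 h and 0.34 (SE 0.04, adjusted p = 7.49e-08) at 24 h. Against vehicle it remained lower at 24 h (log2 -0.24, adjusted p = 1.48e-05), whereas at 6 h the difference of 0.02 (95% interval -0.05 to 0.09) did not pass (adjusted p = 0.822). In vehicle cultures Wfdc2 was lower at 24 h than at 6 h by a log2 fold change of -0.12 (adjusted p = 0.0118), a call lost without replicate 1 of vehicle at 24 h (-0.11, adjusted p = 0.0669). In bulk RNA, fewer cells expressing a gene and less RNA per cell cannot be told apart.

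**Figure D2:**
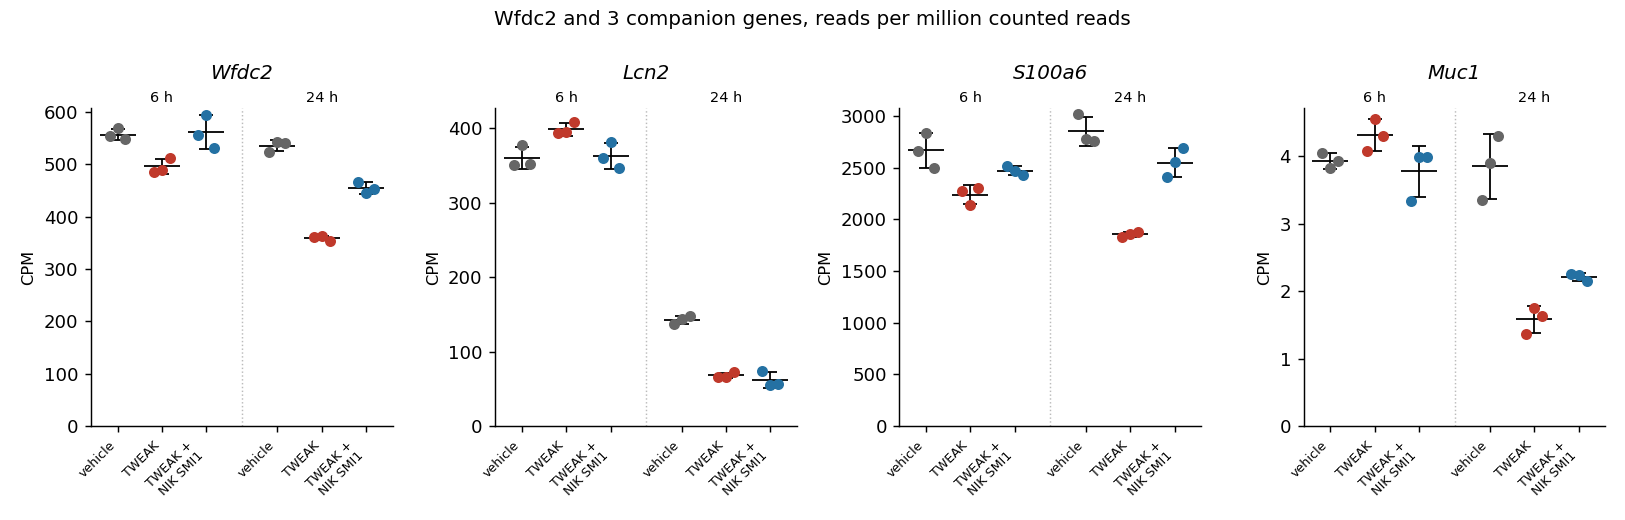
CPM of Wfdc2 and of the companion genes Lcn2, S100a6 and Muc1 in each of the 18 samples, with axes from 0. Points are samples, lines the mean and bars the SD of 3 samples. At 24 h the TWEAK samples of Wfdc2 lie at 354 to 362 CPM, below the 445 to 466 CPM of the NIK SMI1 group and the 523 to 542 CPM of vehicle, while for Lcn2 the NIK SMI1 group overlaps TWEAK.

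Counted over the 8 members other than Pglyrp2, 1 rose (Pglyrp1) and 1 fell (Wfdc2) with TWEAK at each time. The background was 11.7% of all tested genes higher and 12% lower at 6 h, and 18.3% higher and 20.7% lower at 24 h. With NIK SMI1 relative to TWEAK, 1 member rose (Wfdc2) and 0 fell at 6 h, against a background of 5.34% higher and 5.7% lower, and at 24 h 1 rose (Wfdc2) and 1 fell (Pglyrp1), against 10.2% higher and 8.29% lower. Against vehicle, with TWEAK and NIK SMI1, no tested member was called at 6 h (background 7.23% higher, 6.7% lower; edgeR, unadjusted p of 0.316 for Pglyrp1 and 0.641 for Wfdc2, none called by DESeq2 either) and Wfdc2 alone at 24 h (8.07% higher, 9.83% lower). Both tested members were lower in vehicle at 24 h than at 6 h (15.5% higher, 14.4% lower), and for the difference of the TWEAK effect between times 1 was called, lower (3.24% higher, 5.67% lower). The 2 tested members are too few to set against these shares.

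The 6 members below the filter were at or near the smallest level in most samples. Slpi had 101 reads over the 18 samples, Defb1 71, Pigr 50, S100a8 44, S100a9 7 and Saa3 2, and their means over the groups ranged from 0.00593 RPKM (Saa3) to 0.180 RPKM (Slpi). Slpi, an inhibitor of neutrophil elastase, had 5, 15 and 10 reads with vehicle at 6 h and 2, 18 and 5 with TWEAK, and at 24 h 4, 4 and 5 with vehicle and 5, 4 and 2 with TWEAK. The groups of Slpi overlapped at both times. Defb1 had 6, 5 and 6 reads with vehicle, 1, 2 and 5 with TWEAK and 6, 6 and 2 with both agents at 6 h. Defb1 at 24 h had 6, 3 and 4 reads, then 1, 5 and 0, then 3, 6 and 4 for the same treatments, so that it had 0 to 6 reads in every sample. Scaled to depth, the TWEAK samples of Defb1 at 24 h (0 to 0.107 CPM) lay below those with vehicle (0.140 to 0.195 CPM) without overlap, and the other groups of a time point overlapped.

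Pigr had 1, 4 and 3 reads with TWEAK at 24 h and 0 in each of the 3 samples with NIK SMI1, while vehicle had 5, 0 and 0. In the fit of all genes with at least 1 read, this difference of Pigr from TWEAK had an unadjusted p of 0.00801 and did not pass (edgeR, adjusted p = 0.0671). In that fit, no member below the filter passed in any of the 8 comparisons, and their smallest adjusted p for TWEAK against vehicle was 0.256 (Defb1 at 24 h, log2 -1.52). Differences of these 6 genes were therefore not detectable at this depth, which is not the same as absent.

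S100a8 had 0 to 9 reads a sample, S100a9 had at most 2 and none at 24 h, and Saa3 had 1 read in each of 2 samples. S100a8 and S100a9 are abundant in neutrophils, and of the 8 neutrophil markers Csf3r and Ngp had no read in any sample while 6 of the 8 had at most 18 reads in all. The summed level of these markers, nearly all of it Ly6g (1480 reads in all), was 3.08 to 3.47 CPM with vehicle, 1.49 to 1.93 CPM with TWEAK and 1.99 to 2.67 CPM with both agents at 6 h. At 24 h it was 3.25 to 5.17, 1.28 to 1.82 and 2.21 to 2.44 CPM.

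**Figure D3:**
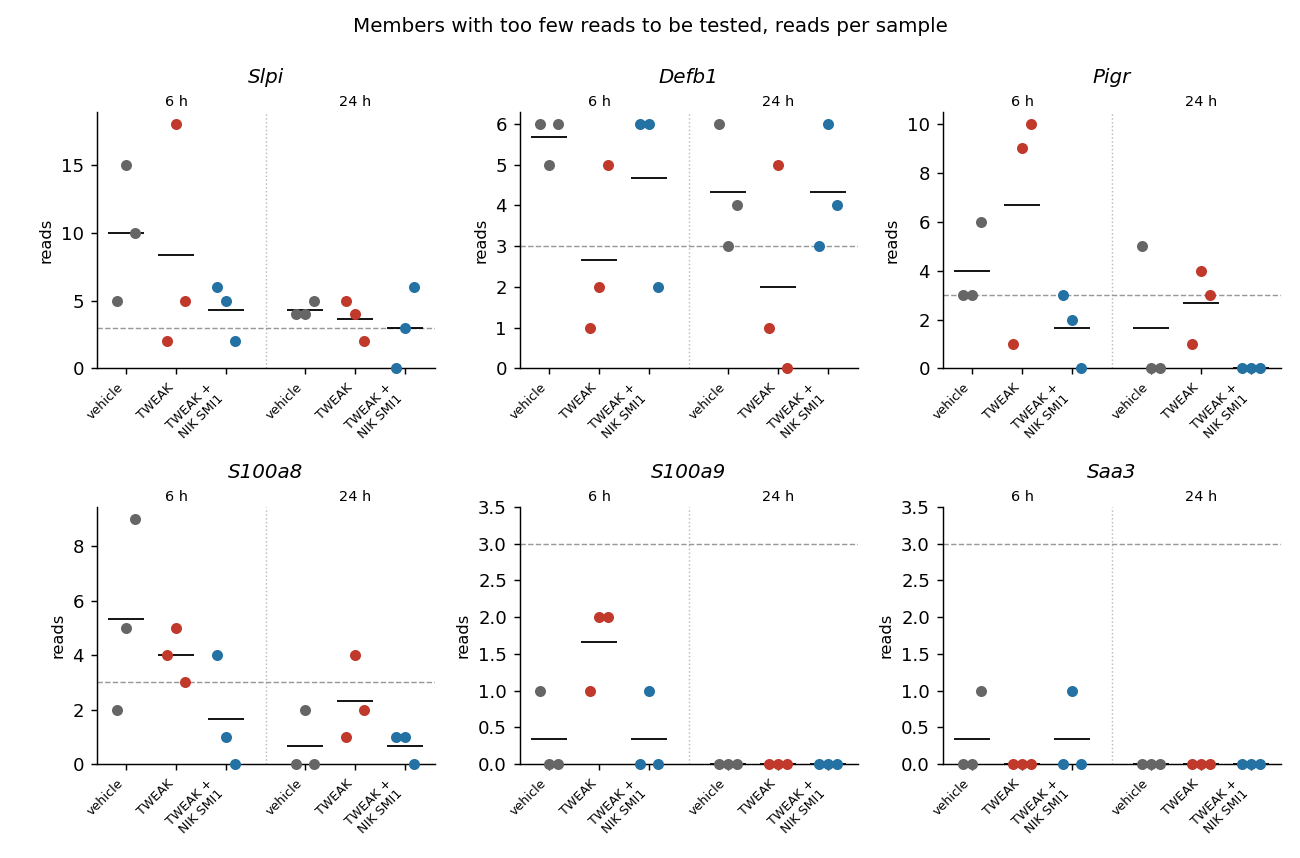
Reads per sample of the 6 members that were not tested, by treatment and time. Points are samples (not scaled to depth), lines the mean of 3 samples, and the dashed line marks 3 reads. Slpi reaches 18 reads in 1 TWEAK sample at 6 h, S100a9 has no read at 24 h, and Pigr has none in the 3 samples with NIK SMI1 at 24 h.

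Among the 68 companion genes, 20 passed the filter and 17 had no read in any sample. With TWEAK, 3 of the 20 rose and 6 fell at 6 h (background over all tested genes 11.7% higher and 12% lower), and 5 rose and 11 fell at 24 h (background 18.3% and 20.7%), where the median of the 20 log2 values was -0.47. With NIK SMI1 relative to TWEAK, 2 rose and 1 fell at 6 h (background 5.34% and 5.7%), and 9 rose and 2 fell at 24 h (background 10.2% and 8.29%; median 0.21). The median over all tested genes stayed within 0.01 of 0 in these comparisons. For NIK SMI1 relative to TWEAK at 24 h, the number of companion genes called in either direction was 7 without replicate 1 of TWEAK. This number was 6 without replicate 3 of TWEAK and 6 without replicate 3 of the NIK SMI1 group. For TWEAK against vehicle at 24 h it was 16 to 17 whichever sample was left out.

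The S100 genes, calcium-binding proteins of which several are secreted, included more genes that fell with TWEAK than genes that rose. Of 10 tested, 5 fell, 1 rose and 4 did not pass at 6 h (background 12% lower and 11.7% higher), and 7 fell, 1 rose and 2 did not pass at 24 h (background 20.7% lower and 18.3% higher). The rise at 6 h, of S100a11, was lost without replicate 3 of vehicle (adjusted p = 0.124) or of TWEAK (0.0996), and the 6 h fall of S100a3 without replicate 2 or 3 of vehicle or any TWEAK replicate (largest adjusted p = 0.112). S100a6, the most abundant of them in reads, averaged 2853 ± 142 CPM with vehicle, 1856 ± 24.7 with TWEAK and 2550 ± 141 with both agents at 24 h, a log2 fold change of -0.62 (SE 0.04, adjusted p = 5.35e-12) with TWEAK and 0.45 (SE 0.04, adjusted p = 1.04e-08) with NIK SMI1. S100a14 followed the same course, with -0.99 and 0.60, as did S100a16 (-0.44 and 0.28), S100a1 (-0.48 and 0.22), S100a13 (-0.60 and 0.21), S100a3 (-0.89 and 0.58) and S100a4 (-0.64 and 0.40). At 24 h S100a11 rose with TWEAK, by 0.40 (adjusted p = 8.55e-07), and its value with NIK SMI1, -0.13, did not pass (adjusted p = 0.0847). The NIK SMI1 calls of S100a3, S100a4 and S100a13 were each lost without single libraries: S100a3 without TWEAK replicate 2 or 3 or NIK SMI1 replicate 1 or 3 at 24 h (largest adjusted p = 0.0978), S100a13 without any TWEAK replicate or NIK SMI1 replicate 1 or 3 (0.115), and S100a4 without any TWEAK replicate, NIK SMI1 replicate 2 or 3, or TWEAK replicate 2 at 6 h (0.271). S100a4 was not called by DESeq2 either (adjusted p = 0.0711). Reads of S100a3 and S100a4 may be shared with the overlapping gene Gm42674.

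Of the genes that withhold iron, 3 were tested. Lcn2, whose product lipocalin-2 captures bacterial siderophores, averaged 360 ± 14.7 CPM with vehicle and 399 ± 8.90 CPM with TWEAK at 6 h, a log2 fold change of 0.16 that did not pass (adjusted p = 0.0677). At 24 h Lcn2 averaged 143 ± 5.44 CPM with vehicle, 67.9 ± 3.49 with TWEAK and 61.7 ± 10.8 with both agents. It fell with TWEAK at 24 h by 1.07 on the log2 scale (SE 0.07, adjusted p = 8.46e-13), and the log2 value with NIK SMI1 relative to TWEAK, -0.14 (95% interval -0.28 to 0.00), did not pass (adjusted p = 0.204). Ltf (lactoferrin) fell with TWEAK at 24 h by 1.53 (SE 0.41, adjusted p = 0.00353), and Hpx (hemopexin), which binds haem, rose by 0.88 (SE 0.25, adjusted p = 0.00570). Neither was called with NIK SMI1 at 24 h (adjusted p = 0.533 and 0.275). With the 1 TWEAK sample without reads of Ins1 or Ins2 in place of the group, the log2 fold change of Hpx was 0.65. The vehicle samples all held islet reads, so that fit cannot separate islet reads from treatment.

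Of the mucosal genes, Adm, the precursor of the antimicrobial peptide adrenomedullin, rose with TWEAK by 1.27 (SE 0.30, adjusted p = 0.00239) at 6 h and 1.74 (SE 0.27, adjusted p = 8.97e-06) at 24 h on the log2 scale. With NIK SMI1 Adm fell at 24 h by 1.44 (SE 0.25, adjusted p = 8.80e-05). Its 6 h value with NIK SMI1, -0.70 (SE 0.31), did not pass (adjusted p = 0.1655). The mucin gene Muc1 and the chemokine gene Cxcl14 fell with TWEAK at 24 h, by 1.22 (adjusted p = 8.14e-08) and 1.13 (adjusted p = 6.40e-06). Cxcl14 was already lower with TWEAK at 6 h (log2 -0.79, adjusted p = 0.00202), whereas Muc1 was not called then (0.15, adjusted p = 0.409). At 24 h Muc1 and Cxcl14 were higher with NIK SMI1 than with TWEAK alone, by 0.45 (adjusted p = 0.0334) and 0.56 (adjusted p = 0.0230). The call of Muc1 was lost without TWEAK replicate 1 or 3 or any NIK SMI1 replicate of 24 h (largest adjusted p = 0.107) and in DESeq2 (0.0606), and that of Cxcl14 without TWEAK replicate 1 or 3 or NIK SMI1 replicate 1 or 3 (0.0906). Rnase4 rose with TWEAK at 24 h by 0.46 (adjusted p = 0.00291), with reads that may be shared with the overlapping gene Ang. The lysozyme genes Lyz1 and Lyz2 had 3 reads each over the 18 samples, and Saa1, Saa2 and Defb2 had none.

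**Figure D4:**
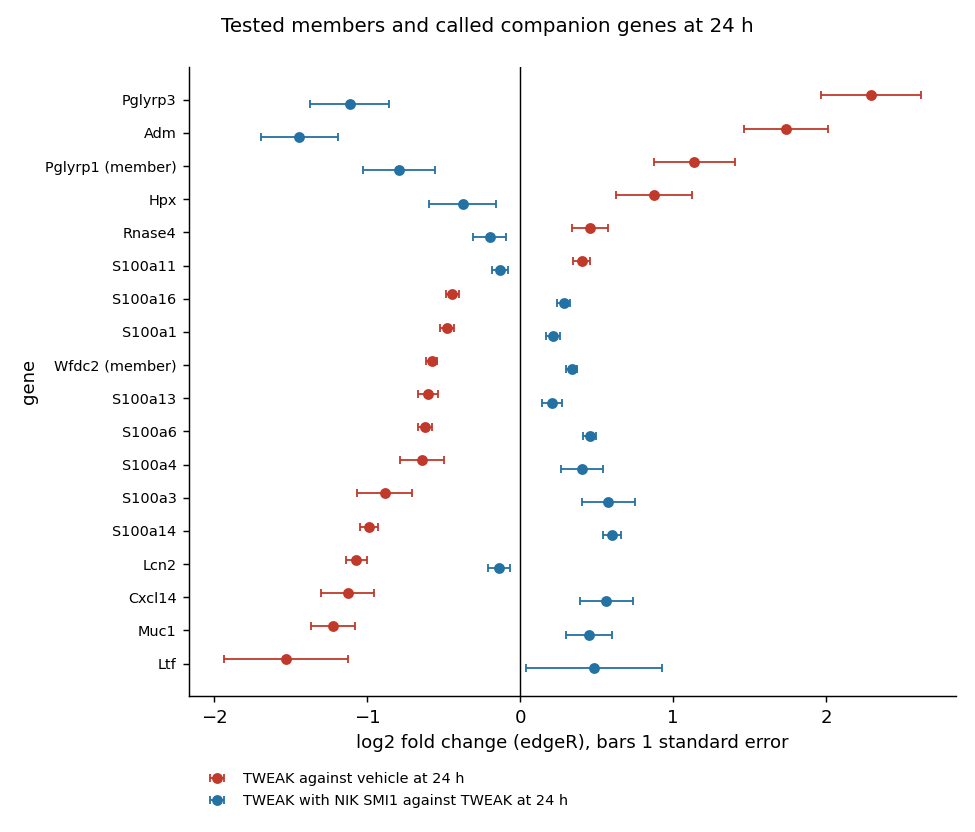
Log2 fold changes at 24 h of the tested members Pglyrp1 and Wfdc2 and the 16 companion genes called in at least 1 of the TWEAK and NIK SMI1 comparisons, for TWEAK against vehicle (red) and TWEAK with NIK SMI1 against TWEAK (blue). Bars are 1 standard error, and Pglyrp2 (9.07 and -4.45) is left out of the axis. The comparisons share the TWEAK samples, Pglyrp3 reaches 2.29 with TWEAK, and Lcn2 has both values below 0.

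The 5 genes whose levels over the 18 samples were most like those of Pglyrp2, out of 13165 genes with a mean of at least 1 CPM, were Tcim, Eif3c, Fbxo32, Ttc39c and Lxn, with Pearson's r of 0.986, 0.983, 0.981, 0.981 and 0.980 (log2 CPM, prior count 2). The points share 6 groups of 3 samples, so that r mostly reflects the group means. Their log2 fold changes with TWEAK at 24 h were 0.89, 0.33, 2.41, 0.87 and 0.98, far below the 9.07 of Pglyrp2. By Spearman's rho, 1 of the 5, Tcim, remained among the first 5. Pearson's r with Pglyrp2 was 0.838 for Pglyrp3, 0.492 for Pglyrp1 and -0.713 for Wfdc2 over the same 18 samples.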

How the data were processed

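RNASeq libraries of 18 samples were made with the TruSeq RNA kit, which does not mark strand. Raw counts, deposited by the authors for 36528 Entrez genes, give uniquely aligned single-end reads within exons; alignment by the authors used GSNAP in HTSeqGenie and NCBI build 37. The same files hold the authors' RPKM values, per exon length and total reads, used here only to compare levels between genes. Symbols came from RefSeq (31049 identifiers matched) and positions from GENCODE M21 (GRCm38), with no conversion between builds.

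Genes with more than 10 reads in at least 4 samples (15521) entered 1 edgeR 4.0.16 model of 6 groups (TMM, quasi-likelihood test, R 4.3.3), with Benjamini-Hochberg adjustment over all genes and a threshold of 0.05. CPM is the count divided by all counted reads of the sample, without the TMM factor. The scripts were tested on simulated data. Intervals of ratios are exact and cover counting error only.

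The members and gene lists were chosen with earlier results of these data known. Named genes were the 9 members, the companion genes called in a TWEAK or NIK SMI1 comparison (at most 20), and the 5 genes most like Pglyrp2. Alternatives were DESeq2 1.42.0, other size factors, no filter, filterByExpr, each time point alone, leaving out each sample, Spearman's rho, and RPKM for the order of levels. The fit with 1 TWEAK sample at 24 h was added after seeing the data.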

Additional observations from a re-analysis of the deposited data

Results flagged for a closer look

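The effect of TWEAK differed between 24 h and 6 h in the edgeR interaction term for 1 member and 8 of the 16 named companion genes. Those 16 were picked by their calls in TWEAK or NIK SMI1 comparisons of these samples, so their count cannot be weighed against a background. Among all 20 tested companion genes 7 were called lower and 1 higher, beside 5.67% and 3.24% of all 15521 tested genes. For Wfdc2 the log2 difference was -0.42 (adjusted p = 1.92e-06), with a larger fall at 24 h. It was -1.23 for Lcn2 (adjusted p = 4.20e-10), which was not called with TWEAK at 6 h and fell at 24 h. The difference was -1.38 for Muc1 (adjusted p = 8.08e-06) and -1.54 for Ltf (adjusted p = 0.0361). Among the S100 genes it was -0.62 for S100a14, -0.53 for S100a13, -0.46 for S100a1 and -0.38 for S100a6 (adjusted p = 3.93e-06, 0.000172, 2.24e-05 and 0.000114). Hpx differed in the other direction, by 1.11 (adjusted p = 0.0305). No group had more than 3 samples, so single samples were not tested for standing apart.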

How the results depend on the processing

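The number of members called held under DESeq2, DESeq2's size factors in edgeR, no filter and filterByExpr in all 8 comparisons, and with each time point fitted alone in the 6 comparisons within a time point, since those across times cannot be fitted that way. Leaving out 1 sample at a time it ranged from 1 to 2 for TWEAK against vehicle at 6 h, from 1 to 2 for NIK SMI1 against TWEAK at 24 h and from 1 to 2 for vehicle at 24 h against 6 h. The fit with the 1 TWEAK sample without reads of Ins1 or Ins2 at 24 h assumes that sample to vary like the other groups, so its calls are not counted. The uncalled log2 fold change of Wfdc2 between TWEAK with NIK SMI1 and vehicle at 6 h ranged from -0.030 to 0.060 when single samples were left out, changing sign. No paired analysis was possible because the labels carry no replicate numbers. Depth limits the 6 members below the filter and the vehicle level of Pglyrp2 at 24 h, which is 2 reads in 1 sample: without it the fitted log2 fold change with TWEAK was 11.96 in place of 9.07. The order of the 9 members by CPM and by RPKM shared 3 places. The companion genes called for TWEAK with NIK SMI1 against vehicle at 6 h numbered 5 without a filter and 3 of 20 with it. With the filter, 7.23% of all tested genes were called higher and 6.7% lower in that comparison. The fit without a filter covered 26210 genes in place of 15521, so these counts do not share a base. Of the single calls of named companion genes, 2 were lost under DESeq2 and 1 with its size factors in edgeR. Without a filter 2 such calls were lost, and with each time point alone 4. Causes of these shifts were not tested.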
